A study of Mus musculus with 8 samples.

Results

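The 4 Notch receptors of the mouse, Notch1, Notch2, Notch3 and Notch4, and their 5 canonical ligands, Dll1, Dll3, Dll4, Jag1 and Jag2, were described across mouse cells sorted from embryoid bodies. Embryoid bodies are clumps of pluripotent stem cells left to differentiate. These 9 genes were chosen by their symbols among the 34536 symbols of the table, all 9 were found, and all 9 had enough counts to be tested. RNA was sequenced from 4 libraries of cells labelled endocardial (A, C, E and G) and 4 of cells labelled endothelial (B, D, F and H), from the same kind of culture, with no genotype or treatment given. The sources used here do not give the stem cell line, the sort markers or the day of culture. The labels do not say that the libraries came from separate cultures, and p-values then cover only the spread among these 8, which may be technical.

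Notch receptors are single-pass membrane proteins that bind Delta-like or Jagged ligands on a neighbouring cell. Binding lets proteases release the receptor's intracellular part, which joins RBPJ in the nucleus and switches on genes of the Hes and Hey families. In blood vessels Dll4 and Notch1 restrain sprouting and favour the arterial state, Notch4 is largely a gene of endothelium, and in the endocardium, the inner lining of the heart, Notch1 acts in trabeculation and valve formation.

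Levels are given as CPM, the count of a gene divided by the scaled library total and multiplied by the same constant in every library. Library totals ran from 6677667 to 11369363 estimated counts. Markers were compared with the labels. The summed level of 19 pan-endothelial markers was 1686 to 2117 CPM in the endocardial libraries and 496 to 947 CPM in the endothelial libraries, and 16 of the 19 passed the test as higher. Cdh5, the endothelial cadherin, averaged 132 ± 17.3 CPM in endocardial libraries, against 16.1 ± 1.11 CPM in endothelial ones (SD, n = 4 each), and was present in every library of both groups. Of 7 endocardial markers 4 passed as higher, among them Nfatc1, a transcription factor of endocardium, with 48.9 ± 5.07 CPM in endocardial libraries, against 11.5 ± 2.53 CPM in endothelial ones. The 3 that did not pass were Npr3, Gata4 and Cdh11, with log2 fold changes of 0.30, 0.54 and -0.04. The median of the 7 was 1.05, below the 2.16 of the 19 pan-endothelial markers. Of all tested genes 1.42% passed as higher. The mean log2 CPM of 12 pluripotency markers was 2.01 to 3.85 in the endocardial libraries and 4.11 (B) to 6.12 (F) in the endothelial libraries. By summed level the groups overlapped, at 405 to 590 CPM in the endocardial and 509 to 1352 CPM in the endothelial libraries. In such bulk RNA, fewer cells of a type and less RNA per cell cannot be told apart.

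Of the 9 receptors and ligands, Notch4 rose and Dll1 fell in the endocardial libraries, and 7 did not pass the test. Dll4 had a fold change as large as that of Notch4 but wider scatter. The edgeR quasi-likelihood test with Benjamini-Hochberg adjustment over all 13817 tested genes called 2 of the 9 at an adjusted p below 0.05, where it called 2.58% of all tested genes, 1.42% as higher and 1.16% as lower. Without adjustment 4 of the 9 had a p under 0.05, against 14.6% of all tested genes. Also 4 of the 9, Notch4, Dll1, Dll3 and Dll4, had groups that did not overlap, against 9.76% of all tested genes. The median log2 fold change of the 9 was -0.42, beside 0.01 for all tested genes.

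**Figure D1:**
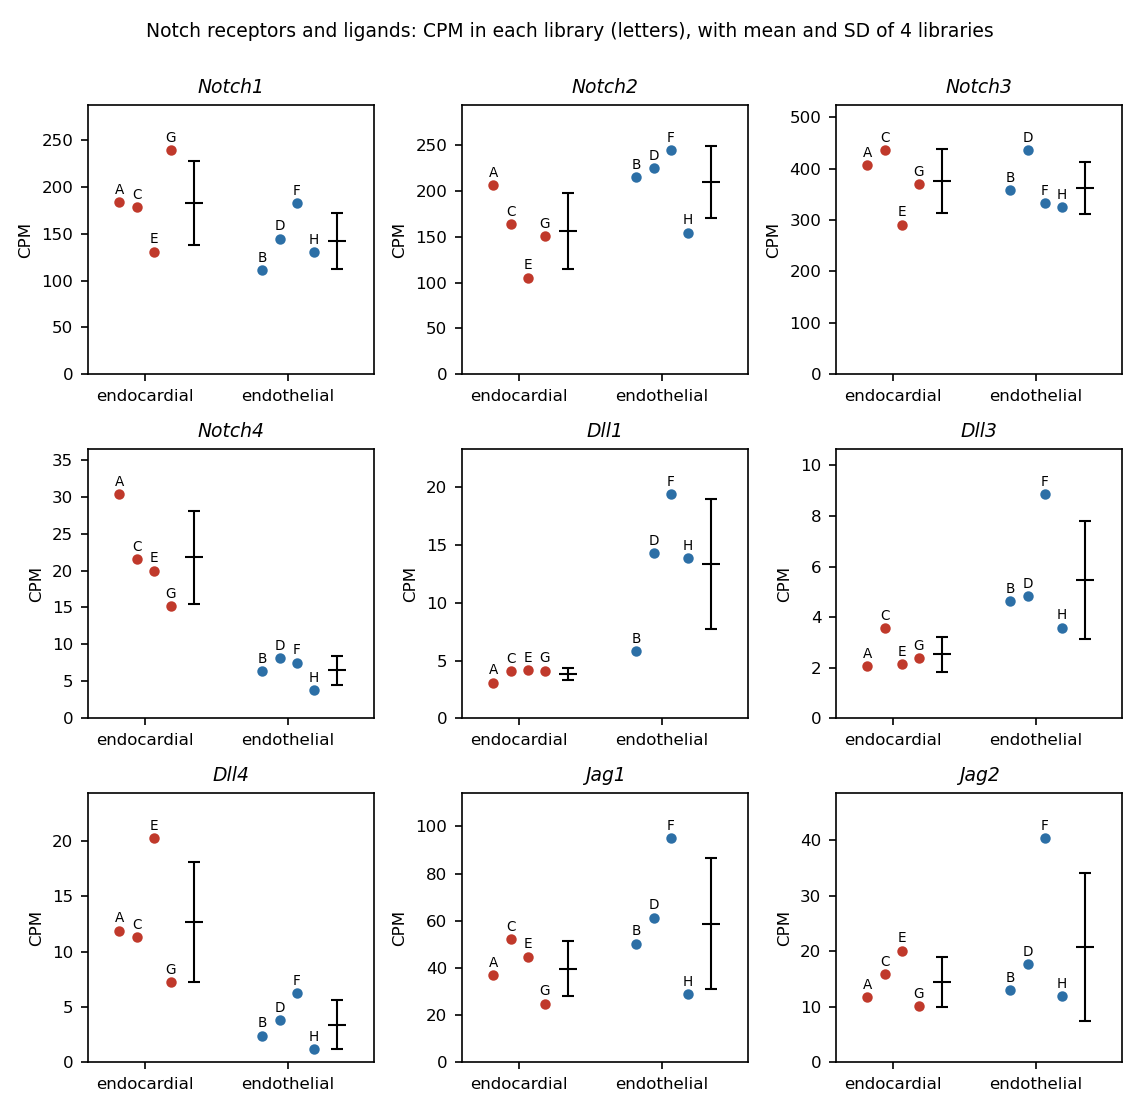
Level of each Notch receptor and ligand in CPM (vertical axes, from 0) in the 4 endocardial libraries (red) and the 4 endothelial libraries (blue), with library letters; black bars give the mean and SD of 4. Notch4 and Dll4 lie higher and Dll1 and Dll3 lower in all endocardial libraries, while the groups overlap for the other members.

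A link between promoter sequence and level was not tested. The promoters of the 3 members with the largest fold changes, Notch4, Dll4 and Dll1, are printed here as a description. Each is the RefSeq window of GRCm38.p6 from 250 bases before to 50 bases after the gene's RefSeq start, 5′ to 3′ on the gene's own strand, with capitals marking CATTGT, the reverse strand of the Sox-type motif ACAATG. The table held a window for all 9 members, and 2 for Dll1, of which the upstream one is shown.
Notch4, chr17:34564045-34564344, plus strand: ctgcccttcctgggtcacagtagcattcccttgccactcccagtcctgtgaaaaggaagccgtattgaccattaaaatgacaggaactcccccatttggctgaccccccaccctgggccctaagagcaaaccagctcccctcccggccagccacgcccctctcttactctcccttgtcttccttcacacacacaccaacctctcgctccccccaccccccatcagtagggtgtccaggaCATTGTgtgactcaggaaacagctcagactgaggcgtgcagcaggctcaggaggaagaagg
Dll4, chr2:119325534-119325833, plus strand: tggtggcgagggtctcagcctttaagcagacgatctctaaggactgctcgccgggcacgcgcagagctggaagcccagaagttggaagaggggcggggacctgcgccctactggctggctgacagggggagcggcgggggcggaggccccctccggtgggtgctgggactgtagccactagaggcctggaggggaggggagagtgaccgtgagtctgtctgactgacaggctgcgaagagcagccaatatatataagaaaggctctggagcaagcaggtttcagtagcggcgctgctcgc
Dll1, chr17:15376883-15377182, minus strand: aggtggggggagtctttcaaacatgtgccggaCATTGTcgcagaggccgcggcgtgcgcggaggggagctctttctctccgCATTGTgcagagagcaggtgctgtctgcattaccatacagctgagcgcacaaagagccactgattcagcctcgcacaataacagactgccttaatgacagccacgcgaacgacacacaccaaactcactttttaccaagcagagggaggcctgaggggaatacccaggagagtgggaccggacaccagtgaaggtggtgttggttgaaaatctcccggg

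Of the 10 windows of the 9 members, 3 held the Sox-type motif on either strand, 1 each of Notch4, Dll1 and Jag1, where 12.6% of all 32851 RefSeq windows held it. The match in Notch4 begins 11 bases before the RefSeq start, and those in Dll1 begin 218 and 169 bases before it. The RefSeq start of Dll4 is that of its GENCODE coordinates, but those of Notch4 and Dll1 are not. The RefSeq start of Notch4 lies inside the GENCODE gene, as does its match, and that of Dll1 lies upstream of the GENCODE gene. TGGGAA, the core letters bound by RBPJ, and CCGGAA, an ETS-type core, were found in 0 of the 10 windows on either strand, where 25.6% and 14.9% of all windows held them. Such matches describe letters in these windows only.

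Notch4 was the receptor that differed. It had 30.3, 21.6, 20.002 and 15.2 CPM in endocardial libraries A, C, E and G, against 6.42, 8.18, 7.51 and 3.83 CPM in endothelial libraries B, D, F and H. Each endocardial library lay above every endothelial library. These values rest on 122 to 235 counts in the endocardial and 32 to 72 counts in the endothelial libraries. The mean was 21.8 ± 6.31 CPM in endocardial libraries, against 6.48 ± 1.91 CPM in endothelial ones (SD, n = 4 each), a 3.36-fold difference (log2 fold change 1.75, SE 0.27, edgeR adjusted p = 0.00993). Notch4 (mouse build GRCm38, chromosome 17, 34564268 to 34588503, plus strand, protein-coding) kept its call whichever of the 8 libraries was left out, and its adjusted p ranged from 3.15e-07 to 0.0417 over all alternatives.

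Notch1, the receptor through which Dll4 acts in developing vessels (chromosome 2, 26457903 to 26516663), had a higher CPM per kb of exon than Notch4 in every library. It had 184, 178, 131 and 239.5 CPM in endocardial libraries A, C, E and G, against 111, 145, 183 and 130.3 CPM in endothelial libraries B, D, F and H. The groups overlapped, with E among the lower and F among the higher values of the 8. The log2 fold change was 0.36 (SE 0.20, 95% interval -0.08 to 0.80, adjusted p = 0.465), so a change of the size of that in Notch4 lay outside the interval.

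Notch2, a receptor with broad expression (chromosome 3, 98013527 to 98150361), had 207, 164, 105 and 151 CPM in endocardial libraries A, C, E and G, against 216, 225, 245 and 155 CPM in endothelial libraries B, D, F and H. Library A exceeded H, so the groups overlapped. The log2 fold change was -0.42 (SE 0.21, 95% interval -0.88 to 0.04, adjusted p = 0.4).

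Notch3, known in adult vessels as the receptor of smooth muscle and pericytes (chromosome 17, 32120820 to 32166852), varied least between the groups. It had 407, 436, 291 and 369.7 CPM in endocardial libraries A, C, E and G, against 358, 436, 334 and 326 CPM in endothelial libraries B, D, F and H. The lowest value, in E, was endocardial, and the highest values, in C and D, came 1 from each group. The log2 fold change was 0.05 (SE 0.15, 95% interval -0.30 to 0.39, adjusted p = 0.931), and it was between -0.05 and 0.15 in the fits that leave out 1 library. Mural and smooth muscle genes were present in both groups: the summed level of the 7 markers was 1285 to 2136 CPM in the endocardial and 641 to 1955 CPM in the endothelial libraries. Of the 7, 0 were called by edgeR and 1 had an unadjusted p under 0.05, against 2.58% and 14.6% of all tested genes. Pdgfrb, the receptor that marks pericytes, averaged 324 ± 61.1 CPM in endocardial libraries, against 265 ± 88.5 CPM in endothelial ones (SD, n = 4 each). The part of such cells in the Notch3 level was not tested.

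The Delta-like ligands differed in direction, with Dll4 higher and Dll1 and Dll3 lower in every endocardial library than in any endothelial one, though Dll1 alone passed the test. Dll4, the Delta-like ligand of arterial and sprouting endothelium (chromosome 2, 119325784 to 119335962), had 11.9, 11.3, 20.2 and 7.24 CPM in endocardial libraries A, C, E and G. In endothelial libraries B, D, F and H it had 2.41, 3.797, 6.26 and 1.196 CPM. The groups did not overlap, although G in the endocardial and F in the endothelial group lay within 1 CPM of each other, and the counts behind them were 58 in G and 60 in F. The mean was 12.7 ± 5.45 CPM in endocardial libraries, against 3.41 ± 2.17 CPM in endothelial ones (SD, n = 4 each). The log2 fold change was 1.89 (SE 0.47, 95% interval 0.84 to 2.94, adjusted p = 0.0704).

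Dll4 therefore missed the threshold in edgeR, and its call depended on the tool. DESeq2 called it (adjusted p = 0.00196), as did limma with voom weights (0.0125) and edgeR with 1 surrogate variable (0.0361). Each of these called 3 of the 9 members, where they called 5.67%, 7.06% and 3.35% of all genes they tested. It was also called without library F (adjusted p = 0.031, log2 fold change 2.36), a fit that called 3 members and 2.09% of all genes, and over all alternatives its adjusted p ran from 0.00188 to 0.195.

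Dll1, a ligand of somites and neural progenitors (chromosome 17, 15367354 to 15376872), was low and even in the endocardial libraries. It had 3.10, 4.08, 4.19 and 4.12 CPM in endocardial libraries A, C, E and G, against 5.80, 14.3, 19.4 and 13.9 CPM in endothelial libraries B, D, F and H. Every endocardial library lay below every endothelial library, and B was the endothelial library nearest to them. The mean was 3.87 ± 0.518 CPM in endocardial libraries, against 13.3 ± 5.62 CPM in endothelial ones (SD, n = 4 each), 3.42-fold lower in the endocardial group (log2 fold change -1.78, SE 0.34, adjusted p = 0.0258). The call was kept without B, F or H and lost without A (adjusted p = 0.073), C (0.0807), D (0.0797), E (0.0816) or G (0.0804), while the log2 fold change stayed between -2.02 and -1.55. Those fits also called few genes of any kind: A left out gave 1.34% of all tested genes, C 1.11%, D 0.982%, E 0.961% and G 1.08%, while leaving out B gave 3.27% and H 2.32%. Over all alternatives the adjusted p ran from 7.87e-05 to 0.0816.

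Dll3, a divergent Delta-like protein of the presomitic mesoderm that does not activate receptors on neighbouring cells (chromosome 7, 28293553 to 28302238), rested on 16 to 85 counts a library. It had 2.07, 3.56, 2.15 and 2.37 CPM in endocardial libraries A, C, E and G, against 4.64, 4.82, 8.87 and 3.59 CPM in endothelial libraries B, D, F and H. The groups did not overlap, but C and H lay within counting error of each other, at 34 and 30 counts. The log2 fold change was -1.10 (SE 0.34, 95% interval -1.87 to -0.34, adjusted p = 0.14).

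Markers of other cells lay beside Dll1 and Dll3. The mean log2 CPM of the 10 tested neural markers was 2.20 to 3.11 in the endocardial and 3.55 (H) to 4.70 (F) in the endothelial libraries. Of the 10, 4 were called lower in the endocardial group, where edgeR called 1.16% of all tested genes lower. Nes, Ncam1 and Tubb3 were not called, with log2 fold changes of -0.06, -0.23 and 0.09. The summed level of the neural list overlapped, at 216 to 324 CPM in the endocardial and 292 to 465 CPM in the endothelial libraries. Of the 12 pluripotency markers 2, Fgf4 and Tdgf1, were called lower and 9 had an unadjusted p under 0.05. Klf4, Dnmt3b and Lin28a were nearly even, with log2 fold changes of -0.12, 0.02 and -0.01. Pou5f1, the factor that defines pluripotent cells, was not called (edgeR adjusted p = 0.0569). It had 1.81, 1.47, 11.5 and 1.497 CPM in endocardial libraries A, C, E and G, and 25.3, 24.5, 95.5 and 27.4 CPM in endothelial libraries B, D, F and H. Of 8 markers of paraxial mesoderm and somites, 5 were too low to test, and of the other 3 Pax3, a factor of somites and dorsal neural tube, was called lower, at 1.19 ± 0.557 CPM in endocardial libraries, against 4.34 ± 1.55 CPM in endothelial ones (SD, n = 4 each; edgeR adjusted p = 0.0413). The other tested markers of that list, Tbx6 and Meox1, were not called and had positive log2 fold changes, 0.05 and 0.40. The summed level of all 8 was 5.74 to 8.90 CPM in the endocardial and 7.53 to 13.04 CPM in the endothelial libraries. Of 8 epithelial markers 2, Cdh1 and Epcam, were called lower and 6 had an unadjusted p under 0.05. Krt8 and Krt18 were nearly even, with log2 fold changes of 0.02 and 0.12. The mean log2 CPM of the 8 was 3.59 to 4.42 in the endocardial and 4.80 to 5.97 in the endothelial libraries. Their summed level overlapped, at 543 to 896 CPM in the endocardial and 685 to 1250 CPM in the endothelial libraries. By mean log2 CPM library E had the highest pluripotency level of the endocardial group and F that of all 8. The part of these cells in the ligand levels was not tested.

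**Figure D2:**
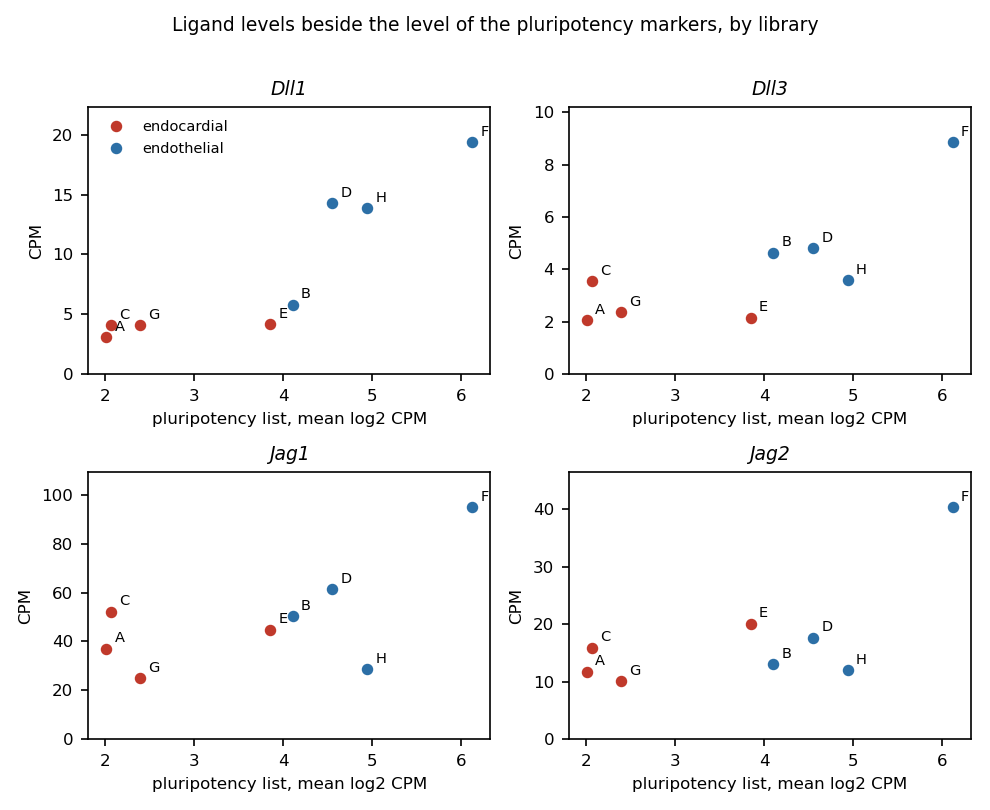
Level of 4 ligands in CPM (vertical axes, from 0) against the mean log2 CPM of the 12 pluripotency markers in the same library (horizontal axes), with library letters, endocardial in red and endothelial in blue. Library F has the highest value of each ligand and of the markers, and among the other 7 libraries Jag1 and Jag2 values of the groups overlap.

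Jag1 and Jag2, the Jagged ligands, did not pass the test. Jag1, which acts in endothelium and smooth muscle (chromosome 2, 137081456 to 137116644), had 37.1, 52.2, 44.8 and 24.9 CPM in endocardial libraries A, C, E and G, against 50.3, 61.3, 95.02 and 28.8 CPM in endothelial libraries B, D, F and H. Jag2 (chromosome 12, 112907819 to 112929776) had 11.7, 15.9, 20.1 and 10.1 CPM in endocardial libraries A, C, E and G, against 13.02, 17.7, 40.4 and 11.96 CPM in endothelial libraries B, D, F and H. For both genes F was the highest library and G the lowest.

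The log2 fold change was -0.56 for Jag1 (SE 0.34, 95% interval -1.33 to 0.20, adjusted p = 0.525) and -0.52 for Jag2 (SE 0.40, 95% interval -1.41 to 0.37, adjusted p = 0.636). Without F the Jag2 log2 fold change was 0.01 and that of Jag1 was -0.25. The endothelial spread of Jag2 rested on that library, since its SD was 13.3 CPM around a mean of 20.8 CPM there, and 4.48 CPM around 14.5 CPM in the endocardial libraries (n = 4 each).

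Ratios within a library were used to ask whether members differed between the groups by unequal amounts, with a two-sided exact permutation test over the 70 assignments of 4 against 4 libraries and adjustment over the 4 ratios computed. The smallest p this design allows is 0.0286. The log2 ratio of Notch4 to Notch1 counts was -3.07 ± 0.62 in the endocardial and -4.44 ± 0.44 in the endothelial libraries (SD, n = 4 each). The difference of 1.37, a 2.58-fold higher ratio, had an exact p = 0.0286 (adjusted 0.0381), and the lowest endocardial library, G at -3.95, lay just above the highest endothelial library, B at -4.08. The ratio of Notch4 to Notch3 was -4.12 ± 0.40 in the endocardial and -5.80 ± 0.37 in the endothelial libraries, a 3.21-fold difference with the same p. In these libraries the groups differed more in Notch4 than in Notch1 or Notch3. Since the Notch4 groups did not overlap and these ratios were chosen with earlier results known, their p-values are no separate support for this.

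The ratio of Dll4 to Dll1 separated the groups most widely. Its log2 value was 1.85, 1.42, 2.21 and 0.78 in endocardial libraries A, C, E and G, against -1.21, -1.84, -1.60 and -3.30 in endothelial libraries B, D, F and H. Dll4 counts exceeded Dll1 counts in all 4 endocardial libraries, and Dll1 counts exceeded Dll4 counts in all 4 endothelial libraries. The difference was 3.55 on the log2 scale, or 11.7-fold. Since neither gene's groups overlap and their differences run in opposite directions, the ratio had to separate the groups, and it is given as a description with no p. The ratio of Jag1 to Jag2 was 1.44 ± 0.27 in the endocardial and 1.55 ± 0.36 in the endothelial libraries, with overlapping groups (exact permutation p = 0.571).

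**Figure D3:**
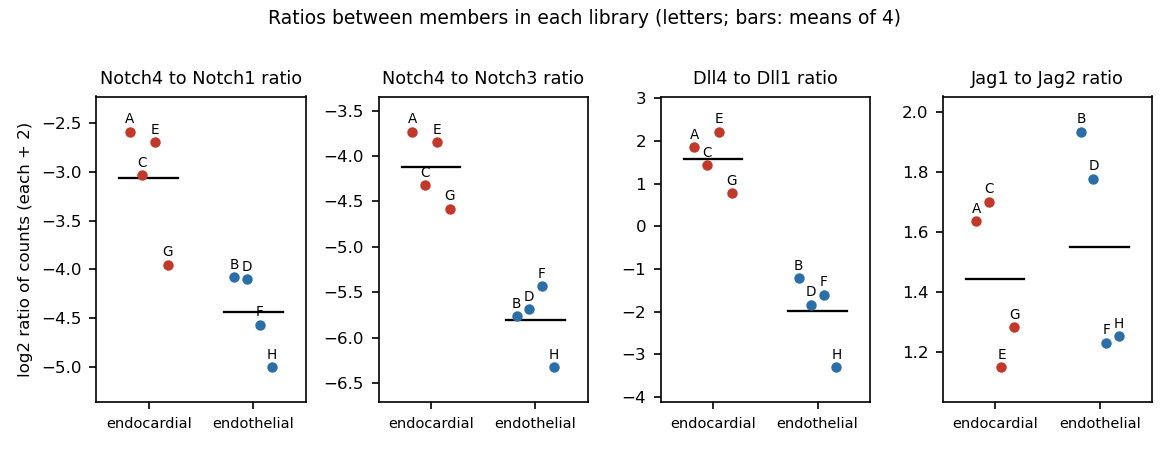
Log2 ratio of the counts of 2 members in each library (vertical axes; 2 added to each count), endocardial libraries left in red and endothelial libraries right in blue, with bars for the mean of 4. The groups lie apart for Notch4 to Notch1, Notch4 to Notch3 and Dll4 to Dll1, and overlap for Jag1 to Jag2.

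Levels were compared between genes after division by gene length, as CPM per kb of annotated exon. In the endocardial libraries the order was Notch3 at 46.5 ± 7.72, Notch2 at 14.5 ± 3.87, Notch1 at 12.9 ± 3.13, Jag1 at 6.82 ± 2.001, Dll4 at 3.29 ± 1.41, Notch4 at 2.70 ± 0.78, Jag2 at 2.08 ± 0.64, Dll1 at 0.92 ± 0.12 and Dll3 at 0.89 ± 0.24 CPM per kb (SD, n = 4). Neighbours in that order did not overlap at 3 places, between Notch3 and Notch2, between Notch1 and Jag1 and between Jag2 and Dll1. Notch3 made up 60.8 ± 2.91% of the length-scaled receptor level in the endocardial libraries and 59.8 ± 4.60% in the endothelial libraries. Notch4 made up 3.57 ± 0.95% of it in the endocardial and 1.05 ± 0.21% in the endothelial libraries.

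Among the ligands, Jag1 had the largest length-scaled share in both groups, at 48.6 ± 4.95% in the endocardial and 52.7 ± 7.57% in the endothelial libraries. Dll4 was second in the endocardial libraries, with 23.0 ± 5.31% of the ligand level, and last of the 5 ligands in the endothelial libraries, with 4.36 ± 1.16%. Dll1 had 6.94 ± 2.28% in the endocardial and 17.7 ± 7.97% in the endothelial libraries. In the endothelial libraries the order was Notch3 at 44.9 ± 6.26, Notch2 at 19.5 ± 3.61, Jag1 at 10.1 ± 4.74, Notch1 at 10.01 ± 2.13, Dll1 at 3.16 ± 1.33, Jag2 at 2.98 ± 1.91, Dll3 at 1.92 ± 0.82, Dll4 at 0.89 ± 0.56 and Notch4 at 0.80 ± 0.24 CPM per kb (SD, n = 4), with gaps only below Notch3 and below Notch1. With the longest transcript as length Notch1 was at 19.3 CPM per kb, above Notch2 at 14.9, in the endocardial libraries, and Notch3 made up 55.7% of the receptor level there.

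**Figure D4:**
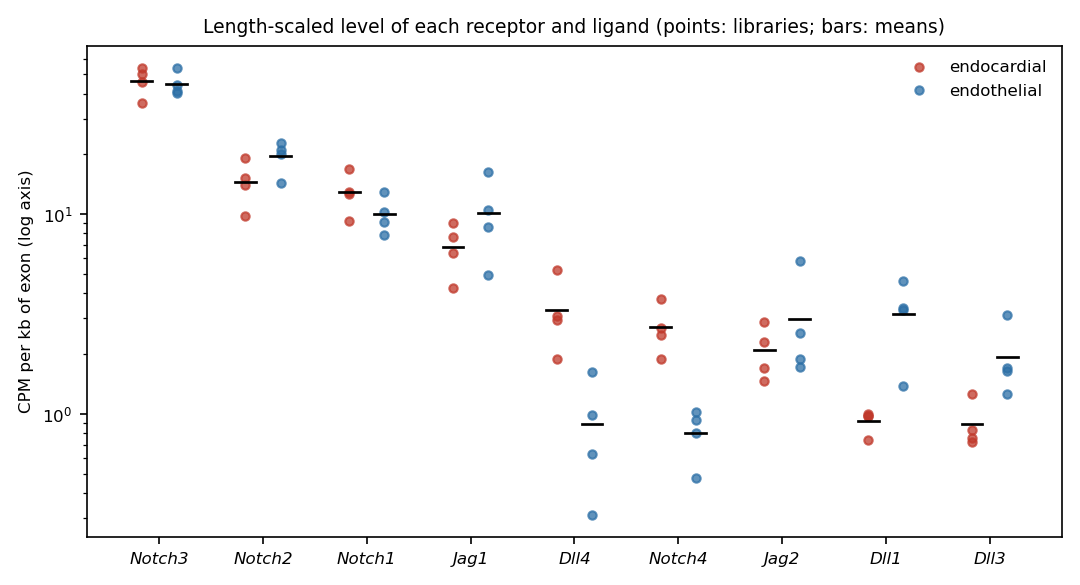
Length-scaled level of each receptor and ligand in CPM per kb of exon (vertical log axis) for every endocardial library (red, left of each pair) and endothelial library (blue, right), ordered by the endocardial mean; bars are means of 4. Notch3 is highest in both groups, and Dll4 and Notch4 lie in the middle of the endocardial order and at the end of the endothelial order.

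Because pan-endothelial markers as a whole were higher in the endocardial libraries, with a median log2 fold change of 2.16 for the 19, each member was also set against their mean log2 CPM in the same library. On this scale a gene with an even CPM in both groups comes out lower in the endocardial libraries. Relative to the marker mean Notch4 stood at -1.11 ± 0.38 log2 units in the endocardial and -0.80 ± 0.37 in the endothelial libraries, and Dll4 at -1.94 ± 0.47 in the endocardial and -1.84 ± 0.87 in the endothelial libraries (SD, n = 4 each). For both genes the groups overlapped. Dll1 stood at -3.51 ± 0.23 in the endocardial libraries and 0.15 ± 0.75 in the endothelial libraries, and for the other 6 members too the groups lay apart, each lower in the endocardial libraries. These values are descriptions with no test, and the part of endothelial content in the Notch4 and Dll4 levels was not tested.

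The genes whose pattern over the 8 libraries was most like that of a member were found by the root mean square (RMS) difference of centred log2 CPM, among 10960 genes with a mean of at least 5 CPM. Nearest to Notch4 were Gja4, an arterial connexin (RMS difference 0.22 log2 units), Ushbp1 (0.27) and Cldn5, an endothelial tight junction protein (0.29), where Notch4 itself spread by 0.94 around its mean. Of 8 tested arterial markers edgeR called 2, Gja4 and Sox17, as higher, where it called 1.42% of all tested genes as higher. The log2 fold changes of the 8 were positive for 6 and negative for 2, Efnb2 (-0.13) and Nrp1 (-0.01), with a median of 0.31. Nearest to Dll4 were Gimap6 (0.27), Bcl6b (0.36) and Gria2, a glutamate receptor subunit (0.37), where Dll4 spread by 1.183. Those nearest to Dll1 were Rab11fip4 (0.22), Rims3 (0.27) and Igsf1 (0.29), and those nearest to Dll3 were Megf6, Slc8a2 and Rhpn1, at 0.17 to 0.20.

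For the other 5 members, nearest were Iqgap2 and Fgd6 to Notch1, Plxna3, Map3k12 and Clcn2 to Notch2, and Slc35a5, Unkl and Tbc1d16 to Notch3. Wfikkn1, Arl4a and Podxl2 were nearest to Jag1 and Ckb, Chst3 and Fam241b to Jag2. Their RMS differences were 0.07 to 0.19, beside a spread of the members themselves of 0.20 to 0.59.

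Of 41 other genes of the pathway, 39 were tested, with a median log2 fold change of 0.02. Of these edgeR called 1 as higher (Egfl7) and 1 as lower (Dner) in the endocardial group, where it called 2.58% of all tested genes. Both were among proteins with ligand-like domains outside the Delta and Jagged families. Egfl7, which endothelial cells secrete, averaged 125.5 ± 15.7 CPM in endocardial libraries, against 38.2 ± 4.13 CPM in endothelial ones (SD, n = 4 each; log2 fold change 1.72, SE 0.13, adjusted p = 8.52e-05), and it is also 1 of the 19 pan-endothelial markers. Dner, a neuronal protein that can bind Notch, averaged 0.861 ± 0.215 CPM in endocardial libraries, against 3.84 ± 2.50 CPM in endothelial ones (log2 fold change -2.14, SE 0.48, adjusted p = 0.0493), with F highest at 7.41 CPM. Dner lost its call without A, C, D, E, F, G or H, in each of which the adjusted p was between 0.0708 and 0.14, and kept it without B.

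Of 5 genes for enzymes that glycosylate the receptors, 0 were called by edgeR and 1 had an unadjusted p under 0.05, the Fringe gene Lfng, whose product tunes which ligands a receptor answers to. Lfng averaged 4.55 ± 1.52 CPM in endocardial libraries, against 11.402 ± 4.82 CPM in endothelial ones (SD, n = 4 each; log2 fold change -1.33, SE 0.34, adjusted p = 0.0791, called by DESeq2 at 0.00834). For Mfng, another Fringe, the log2 fold change was 0.83 (SE 0.39, adjusted p = 0.38). Of 9 protease genes, which make the receptor-cleaving enzymes, 0 were called by edgeR and 0 had an unadjusted p under 0.05, where 2.58% and 14.6% of all tested genes did. Their log2 fold changes ran from -0.09 to 0.27, the largest for Furin (0.27) and Psen2 (0.17).

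The ubiquitin ligases that activate ligands, 4 genes, had log2 fold changes from -0.21 for Neurl1a to 0.42 for Neurl1b, with 0 called by edgeR and 0 at an unadjusted p under 0.05. The 4 genes of receptor endocytosis and turnover, among them Numb (0.17) and Numbl (-0.14), likewise had 0 called and 0 at an unadjusted p under 0.05. Of 9 genes of the nuclear complex 0 were called and 0 had an unadjusted p under 0.05. Of all tested genes 2.58% were called and 14.6% had such a p, so counts of 0 in lists this short say little about these roles. For Rbpj, the DNA-binding factor of the pathway, the log2 fold change was -0.24 (SE 0.11, adjusted p = 0.367), and for the acetyltransferase gene Kat2b it was -0.33 (adjusted p = 0.708).

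Of 5 tested target genes 0 were called by edgeR, with 2 at an unadjusted p under 0.05, against 14.6% of all tested genes. The median log2 fold change of the 5 was 0.42. Hey2, a target in arteries and endocardium, had 13.04, 17.4, 22.7 and 24.7 CPM in endocardial libraries A, C, E and G, against 8.92, 11.2, 8.14 and 13.4 CPM in endothelial libraries B, D, F and H. The groups overlapped by the pair A and H alone (log2 fold change 0.90, SE 0.24, adjusted p = 0.0818). DESeq2 (0.0119), limma (0.0414) and edgeR with 1 surrogate variable (0.0165) called it. Nrarp, a target that feeds back on the pathway, averaged 9.13 ± 2.04 CPM in endocardial libraries, against 5.62 ± 1.37 CPM in endothelial ones (SD, n = 4 each; log2 fold change 0.70, SE 0.25, adjusted p = 0.212, called by limma at 0.0457).

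Hes1, the broadest target, differed between libraries far more than between groups (log2 fold change -0.08, adjusted p = 0.972) and was named with Hey1 and Heyl after their values were seen. Hes1 had 41.6, 96.3, 47.0 and 174.8 CPM in endocardial libraries A, C, E and G, against 51.7, 102.8, 51.4 and 173.9 CPM in endothelial libraries B, D, F and H. Libraries with neighbouring letters, such as G and H, had like values, although no label pairs them. Hey1 (58.3 CPM in G and 36.4 CPM in H) and Heyl (11.7 CPM in G and 12.7 CPM in H) were also highest in those libraries, and lowest in A and B. Notch1 was highest in G (239.5 CPM) and lowest in B (111 CPM), but unlike these targets it was high in A (184 CPM) and low in H (130.3 CPM).

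**Figure D5:**
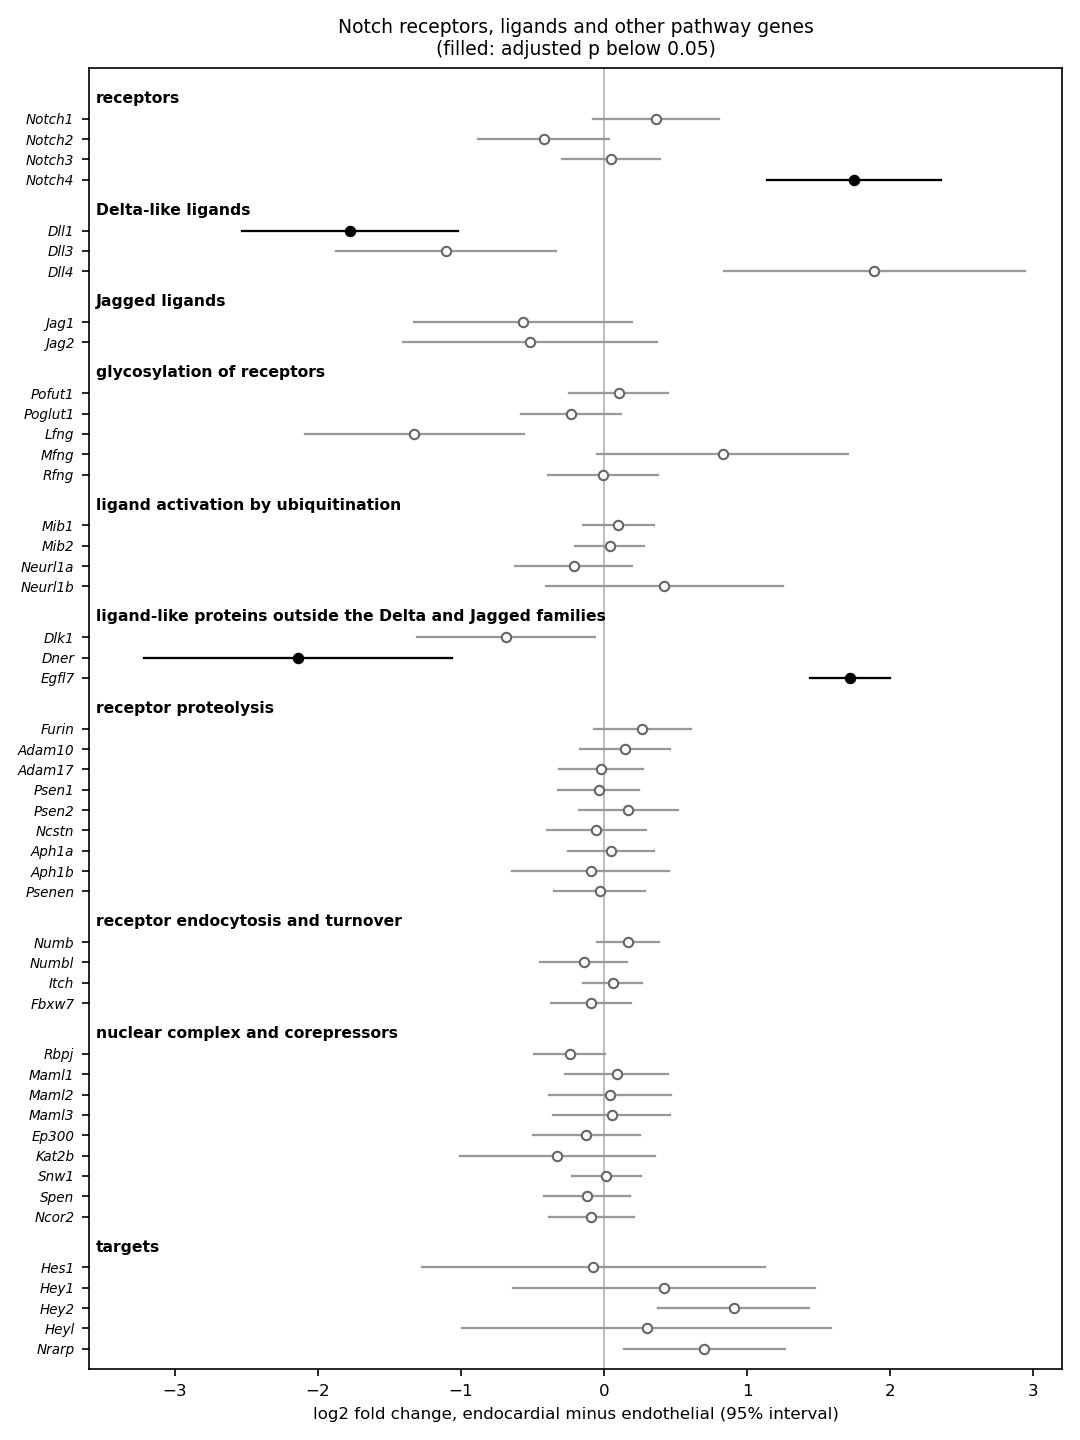
Log2 fold change, endocardial minus endothelial, with its 95% interval (horizontal axis) for the 9 receptors and ligands and 39 other tested genes of the pathway, grouped by role; filled points passed the test. Notch4 and Egfl7 lie to the right and Dll1 and Dner to the left among the filled points, and proteases and nuclear factors lie near 0.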

How the data were processed

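Libraries were made from messenger RNA with a stranded kit, per the labels' protocols. The authors deposited estimated counts, 1 value per gene symbol and library. Salmon, DESeq2 and build mm10 are named per the submitters' processing notes, with no version, transcript set or strand setting. The deposited estimated counts had unequal totals and were rounded to whole numbers, where they were not whole already, before use. The closest pair of libraries still differed by more than sampling noise (chi-square per degree of freedom 8.56).

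Low genes were removed by filterByExpr (at least 10 counts, 15 in total), leaving 13817, and libraries were scaled by TMM. The test was edgeR 4.0.16 (R 4.3.3), the robust quasi-likelihood F-test over all 8 libraries, with p-values adjusted by Benjamini and Hochberg's method and a threshold of 0.05. SEs were derived from the log2 fold change and F. A zero count would allow up to 0.267 to 0.438 CPM (3 counts, counting error only). Log2 CPM used a prior count of 2. Lengths and coordinates are from GENCODE M21 on GRCm38, the assembly of mm10. Alternatives were DESeq2 1.42.0, limma 3.58.1 with voom and quality weights, other scalings and filters, no robust estimation, 1 surrogate variable (sva 3.50.0), a threshold of 0.01, neighbouring letters as a block and each library left out. The procedure was tested on simulated data. The text names all 9 members, other pathway genes that were called or had 1 of the 2 smallest p in their role, and the 3 nearest genes by pattern, leaving out predicted models and 1 gene not reported here; single cell type markers were picked as examples after their values were seen. The members, lists and ratios were chosen with earlier results of these data known.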

Additional observations from a re-analysis of the deposited data

Results flagged for a closer look

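Dll1 in endocardial library A, at 3.10 CPM, lay below the other 3 endocardial libraries, a narrow group with 4.08 to 4.19 CPM. It was the only library to stand apart among the 26 groups of 4 values examined for the members and their ratios. Chance marks about 1 in 20 groups, so 1 among 26 is near that rate. The value in A rests on 24 counts.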

How the results depend on the processing

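Over all genes, 920 were called by DESeq2, 975 by limma, 1204 with neighbouring letters as a replicate block, 104 at a threshold of 0.01 and 135 to 457 without 1 library, against 356 in edgeR. Lower calls outnumbered higher ones in DESeq2 (577 against 343), limma (565 against 410) and that block (699 against 505). Of the 9 members 1 was called at 0.01 and 1 to 3 without 1 library. Of the other pathway genes 5 each were called by DESeq2, limma and the block, 1 with the stricter filter, 1 at 0.01, and 1 to 2 without 1 library. The block called 3 members, Notch4, Dll1 and Dll4. Beside Egfl7 and Dner it called the pathway genes Mfng (edgeR adjusted p = 0.0374), Hey2 (0.02) and Nrarp (0.0403), which edgeR without it did not call. These calls came in a fit that called 1204 genes in all, against 356 without the block. No label states that pairing. Deviations from group means correlated at 0.324 to 0.611 within neighbours. Among the libraries of the other group, each of the 8 correlated best with its neighbour, a hint from the data only.

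Without 1 library the Notch4 to Notch1 difference was 1.18 to 1.66, Notch4 to Notch3 1.51 to 1.83, Dll4 to Dll1 3.12 to 3.82 and Jag1 to Jag2 -0.21 to 0.0217, the last without B, on the log2 scale. With 7 libraries the exact test cannot go below 0.0571. Among the members and the other genes named, the log2 fold changes that crossed 0 without 1 library were of genes that were not called: Notch3 (-0.0487 to 0.15), Jag2 (-0.73 to 0.0147), Kat2b (-0.47 to 0.0599), Hes1 (-0.60 to 0.39), Hey1 (-0.078 to 0.73) and Heyl (-0.0252 to 1.004). The direction of the other members was the same in all alternatives. The longest transcript as length gave Notch3 55.7% of the endocardial receptor level, in place of 60.8%. The causes were not tested. The counts behind Dll4 were as low as 10, in H.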

Other observations

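Hes5, a Notch target of neural progenitors, was too low for the edgeR filter and was named after its values were seen. It had 1, 2, 2 and 3 counts in endocardial libraries A, C, E and G, against 11, 9, 24 and 7 counts in endothelial libraries B, D, F and H. DESeq2, which kept it, gave an adjusted p of 0.0229. Dlk1, an imprinted gene whose protein resembles Delta, was also named after its values were seen, at 395 ± 62.3 CPM in endocardial libraries, against 635 ± 289 CPM in endothelial ones (SD, n = 4 each; edgeR log2 fold change -0.69, adjusted p = 0.287), with 1043 CPM in library B.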
